A study of Saccharomyces cerevisiae with 15 samples.

Results

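The comparison set wild-type budding yeast (Saccharomyces cerevisiae) kept for 1 h in 1.0 mM arsenite, As(III), against wild-type yeast kept for 15 min in the same dose. It was chosen by array title: 9 of the 15 arrays in the series belong to it, 6 taken after 1 h and 3 after 15 min. Every array carried RNA of treated cells in one dye and RNA of untreated wild-type cells in the other, so each array gave log2 ratios of treated over untreated RNA and no array held 1 time against the other. Whether the untreated RNA was the same preparation at both times is not stated. Treated RNA carried Cy5 on 1 h replicates 2, 4 and 5 and on all 15 min arrays, whereas 1 h replicates 1, 3 and 6 had it in Cy3. The labels name no strain background beyond wild type, and they do not state whether replicates were separate cultures, so each p-value reflects array-to-array spread only, which may be technical.

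Arsenite is a trivalent form of arsenic that binds closely spaced thiol groups of proteins and of glutathione. Yeast removes it by exporting it across the plasma membrane and by moving its glutathione conjugate into the vacuole, and it makes more glutathione from sulfur that it takes up as sulfate. Like many other stresses, arsenite also sets off the environmental stress response of yeast, in which transcripts of chaperones and redox enzymes go up while those of ribosomal proteins, ribosome assembly factors and other growth genes go down. The comparison of the 2 times asks which of these transcripts were still on their way at 15 min.

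The size of each difference came from the 3 Cy5 arrays at 1 h and the 3 arrays at 15 min, which share a dye orientation. For some genes the 3 Cy3 arrays at 1 h are given beside them. Values were averaged over the spots of a gene and centred on the median gene of each array, so each one is a level relative to the median transcript. Across genes, which are not independent replicates, the log2 ratios of the 15 pairs of 1 h arrays correlated at r = 0.72 to 0.89, against -0.06 to 0.23 for the 3 pairs of 15 min arrays. The 15 min arrays were thus less alike. Replicate 2 at 15 min correlated at -0.06 and 0.22 with 15 min replicates 1 and 3. It correlated at 0.26, 0.84 and 0.82 with 30 min replicates 1, 2 and 3, and at 0.31 to 0.72 with the 1 h arrays. Why this array was closer to later ones was not tested. Duplicate spots of 15 min replicate 1 correlated at 0.647, and those of the other 15 min arrays at 0.958 and 0.932. On 15 min replicates 2 and 3 and the Cy5 arrays at 1 h, 100% of the spots gave a ratio of whole numbers when read as base 2 logarithms (numbers up to 65535, relative tolerance 5e-14). This held for 0.375% of spots on 15 min replicate 1 and for 0.107% to 0.314% on the Cy3 arrays at 1 h. How 15 min replicate 1 was made is not given in the sources used here, and it enters each difference below. Brightness below is a proxy, since no spot intensities were used. It is the mean log2 of the 2 whole numbers of a ratio, as a median over the 10 arrays of the series with such ratios. The ratios were read in lowest terms, so a shared factor lowers the proxy, and it need not equal spot intensity. The brightest eighth of the genes minus the dimmest eighth gave a log2 difference between -1.80 and -0.06 on the 1 h arrays, against 0.36, -1.87 and 0.35 on 15 min replicates 1, 2 and 3.

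At 1 h most transcripts of cytosolic ribosomal proteins were lower than at 15 min, as were some of ribosome assembly factors and amino acid synthesis enzymes. Most aryl-alcohol dehydrogenase transcripts and some of redox enzymes, sulfate assimilation enzymes and heat shock proteins were higher. Of 5539 genes, 215 (3.88%) passed the test at an adjusted p under 0.05 (limma, Benjamini-Hochberg). Of these, 42 genes (0.758%) were higher and 173 (3.12%) were lower at 1 h than at 15 min. At an unadjusted p under 0.05 there were 850 genes (15.3%), 219 higher and 631 lower. The called differences ran from 1.09 to 3.70 log2 units upward and from -1.15 to -4.50 downward, and the median difference of all genes was -0.09. The 3 Cy5 arrays at 1 h lay entirely on one side of the 3 arrays at 15 min in 214 of the 215 genes, the exception being THI74, and in 205 genes all 6 arrays at 1 h did. The same arrays made the calls, so this separation was largely set by the selection and is no separate support. That also holds where called genes are said below not to overlap. The share over all genes is not given here.

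These counts depended on single arrays, on the scale and on the use of replicate numbers. With replicate number as a block 0 genes passed in either direction, and the labels do not say whether the numbers pair arrays. Higher and lower genes numbered 19 and 72 without 15 min replicate 1, 70 and 224 without 15 min replicate 2, 34 and 73 without 15 min replicate 3, 16 and 59 without 1 h replicate 4, and 12 and 69 without 1 h replicate 5. On the values as deposited, without centring, the median gene lay 1.42 log2 units lower at 1 h (a difference of -1.42), and 2 genes were higher and 557 lower. That shift rested largely on 15 min replicate 1. The deposited median gene stood at -1.22, -1.35 and -0.69 on the Cy5 arrays at 1 h, against 2.23, -1.17 and -0.34 on 15 min replicates 1, 2 and 3. Without centring and without 15 min replicate 1, a setting added after seeing the data, the median difference was -0.49, with 5 genes higher and 133 lower, so values given below as deposited carry the shift of that array. With arrays scaled to equal spread, the split was 22 higher and 264 lower, and with the brightness trend of each array removed, also added after seeing the data, it was 141 higher and 205 lower.

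**Figure D1:**
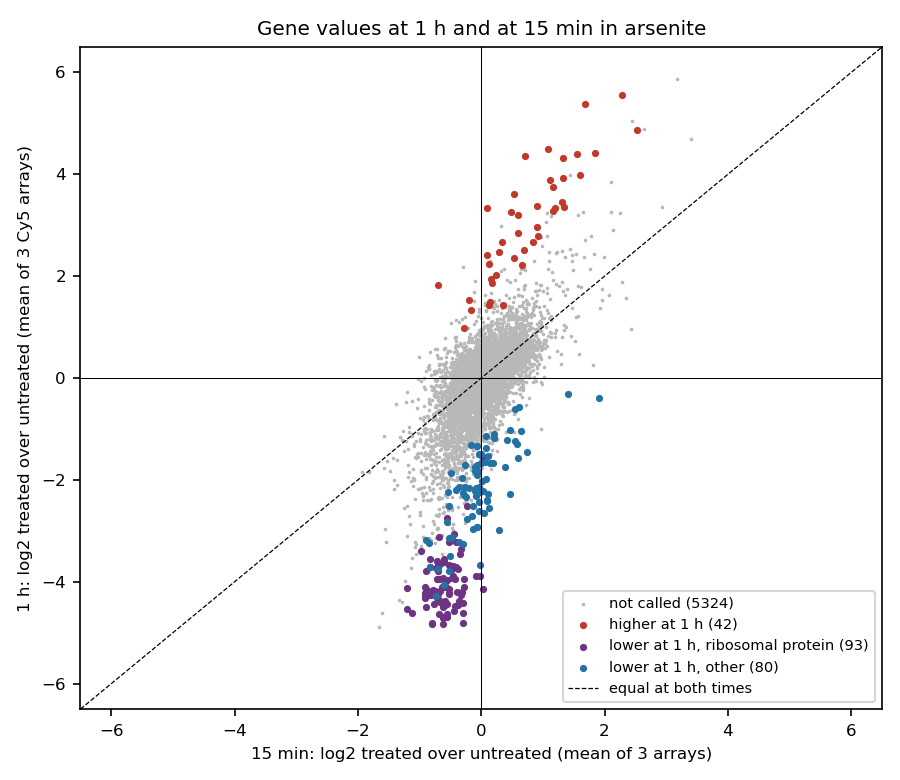
Each point is a gene, with its mean log2 ratio of treated over untreated RNA at 1 h (3 Cy5 arrays, vertical axis) and at 15 min (3 arrays, horizontal axis), centred on the median gene. The 93 called ribosomal protein genes form a group far below the dashed line of equal values, and the 42 genes higher at 1 h lie above it.

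Aryl-alcohol dehydrogenases, a family of putative oxidoreductases of the aldo-keto reductase type whose transcripts answer oxidative stress, had the largest share of rising members among the gene lists. Of 7 measured members, 6 were higher at 1 h and 0 lower, with a median difference of 2.46 over the list. AAD14 stood at 4.12, 4.91 and 4.47 on the Cy5 arrays and 4.54, 4.54 and 4.47 on the Cy3 arrays at 1 h, against 0.17, 1.60 and 1.48 at 15 min. The lowest 1 h array thus lay far above the highest 15 min array. The difference was 3.41 ± 0.56 (limma SE, adjusted p = 0.006068), which is 10.7-fold. AAD6 differed by 2.84 ± 0.51 and AAD3 by 2.78 ± 0.46, again with no overlap between the times. AAD10, AAD15 and AAD4 differed by 2.46, 2.39 and 1.83. The family member YPL088W did not pass the test and had the opposite sign, with a mean of -0.05 at 1 h and 0.87 at 15 min (difference -0.92 ± 0.43, adjusted p = 0.3247). These genes are close copies of each other, so a spot can bind transcripts of more than 1 member. The list had 3 called members without 1 h replicate 4 and 0 on the values as deposited or with scaled arrays, while its median stayed above 0 in each alternative (1.13 to 2.89).

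Genes of oxidative stress defence followed, with 6 of 30 higher and 0 lower. The largest difference among all genes higher at 1 h was that of GRE2, an NADPH-dependent methylglyoxal reductase. It stood at 5.06, 5.46 and 5.62 on the Cy5 arrays and at 5.43, 5.60 and 5.82 on the Cy3 arrays at 1 h, against -0.95, 2.31 and 3.69 at 15 min. The 1 h arrays were tightly grouped and the 15 min arrays widely spread, with replicate 1 below 0, and the times did not overlap. Its difference was 3.70 ± 0.84 (limma, adjusted p = 0.02061), and the call was lost without 15 min replicate 1, 1 h replicate 4 or 1 h replicate 5. The SD of GRE2 was 2.38 at 15 min and 0.29 on the Cy5 arrays at 1 h. The limma SE pools the spread of all times, so it can understate the uncertainty at 15 min. OYE3, an NADPH oxidoreductase of the old yellow enzyme family, reached 5.23, 6.12 and 5.32 on the Cy5 arrays and 7.26, 5.84 and 6.53 on the Cy3 arrays at 1 h, against 1.97, 2.47 and 2.40 at 15 min. OYE3 was already called above untreated cells at 15 min and was a further 9.7-fold higher at 1 h (difference 3.28 ± 0.42, limma adjusted p = 0.001869).

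The mitochondrial peroxiredoxin gene PRX1 was at 3.10, 4.17 and 4.50 on the Cy5 arrays at 1 h, against -0.09, 2.05 and 2.02 at 15 min, a difference of 2.60 ± 0.51. The other called members were TSA2, a cytosolic peroxiredoxin gene (2.33 ± 0.40), MXR1, which encodes a methionine sulfoxide reductase (2.06 ± 0.40), and SOD2, the gene of mitochondrial superoxide dismutase (1.56 ± 0.37). The list median was 0.55, against -0.09 for all genes, and it was -0.78 on the values as deposited. The list had 10 called members with the brightness trend removed, 9 with no dye term, 3 without 1 h replicate 4 and 2 without 1 h replicate 5. On the values as deposited 1 was called, GRE2, and with scaled arrays 1, TSA2. Of 25 glutathione and glutaredoxin genes, 0 passed the test in limma and 8 had an unadjusted p under 0.05, 7 of them higher at 1 h. Their median difference was 0.25 (-1.08 as deposited).

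Sulfate assimilation turns sulfate into the sulfide from which cysteine, methionine and glutathione are built. Of 28 measured genes of this pathway and of sulfur amino acid synthesis, 4 were higher at 1 h and 0 lower, and the median difference was 0.44 (-0.89 as deposited). They were MET3, the ATP sulfurylase gene of the first step, MET14, the adenylylsulfate kinase gene of the second, MET16, the PAPS reductase gene of the third, and STR3, a cystathionine beta-lyase gene. MET3 stood at 3.28, 3.86 and 4.14 on the Cy5 arrays and at 4.67, 3.81 and 4.64 on the Cy3 arrays at 1 h, against -0.07, 1.20 and 2.36 at 15 min. All 6 values at 1 h were above the 3 at 15 min, and the difference was 2.60 ± 0.48 (limma, adjusted p = 0.007774). MET16 differed by 2.14 ± 0.45, MET14 by 2.13 ± 0.42 and STR3 by 1.82 ± 0.37. The number of called members was 11 with the brightness trend removed, with a list median of 0.91, and 8 with no dye term or with array weights. It was 1 without 15 min replicate 1, 1 without 1 h replicate 5, and 0 on the values as deposited or with scaled arrays. Of the 6 regulators of the pathway 0 passed in limma, and 1 had an unadjusted p under 0.05.

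Cytosolic chaperone and heat shock genes were already raised at 15 min, with a list median of 1.75 at 1 h and 1.36 at 15 min. Of 31 genes, 29 were called above untreated cells at 1 h and 9 at 15 min, against 946 and 37 of all 5539 genes. The test against untreated cells had 6 arrays at 1 h and 3 at 15 min, so its counts at these times differ in power. It also took out a dye effect estimated from the 1 h arrays alone, which adds uncertainty at 15 min. The 15 min values it tested thus differ from the array values given here. For HSP31, for example, it tested 1.75 at 15 min, where the 3 arrays averaged 1.16. Only 3 of the 31 passed the test between the times, and all of them were higher at 1 h. These were SSA3, a stress-induced Hsp70 gene (2.57 ± 0.63), HSP12, a small membrane-protecting hydrophilin gene (2.36 ± 0.46), and HSP31, the gene of a chaperone that also converts methylglyoxal (2.13 ± 0.41). HSP12 reached 4.42, 4.81 and 5.41 on the Cy5 arrays at 1 h, against 2.32, 2.56 and 2.68 at 15 min, so that the times lay well apart although it was raised at both. SSA3 cannot be told from the closely related SSA4 with certainty on such arrays.

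Other chaperone genes, named after their values were seen, did not pass. HSP26, a small heat shock protein gene, averaged 5.86 at 1 h and 3.18 at 15 min (difference 2.68 ± 0.78, limma adjusted p = 0.07244). SSA4 averaged 4.69 at 1 h and 3.40 at 15 min (1.30 ± 0.64, limma adjusted p = 0.3577). FES1, CUR1 and STI1, a nucleotide exchange factor gene, a protein sorting factor gene and an Hsp90 cochaperone gene, had differences of -0.39, -0.45 and -0.42, with overlapping arrays. The list median was 0.68 (-0.65 as deposited). Without 1 h replicate 5, on the values as deposited and with scaled arrays, 0 members were called, whereas 7 were called with no dye term and 11 with the brightness trend removed.

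The proteasome degrades proteins that ubiquitin marks. Of 35 proteasome subunit genes, 29 were above untreated cells at 1 h and 1 at 15 min by the test against untreated cells (946 and 37 of all 5539 genes). Between the times only RPN11, the gene of the deubiquitinating lid subunit, passed. It averaged 1.44 at 1 h and 0.35 at 15 min (difference 1.09 ± 0.26, limma adjusted p = 0.02843), and its difference was -0.24 on the values as deposited. The call was also lost without 15 min replicates 1 or 3 and without 1 h replicates 4 or 5. With the brightness trend removed 12 subunit genes were called higher, and with no dye term 4. The list median was 0.25 (-1.08 as deposited, 0.78 with the trend removed), and 0 of 23 ubiquitin and Cdc48 genes passed in limma, 6 having an unadjusted p under 0.05.

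**Figure D2:**
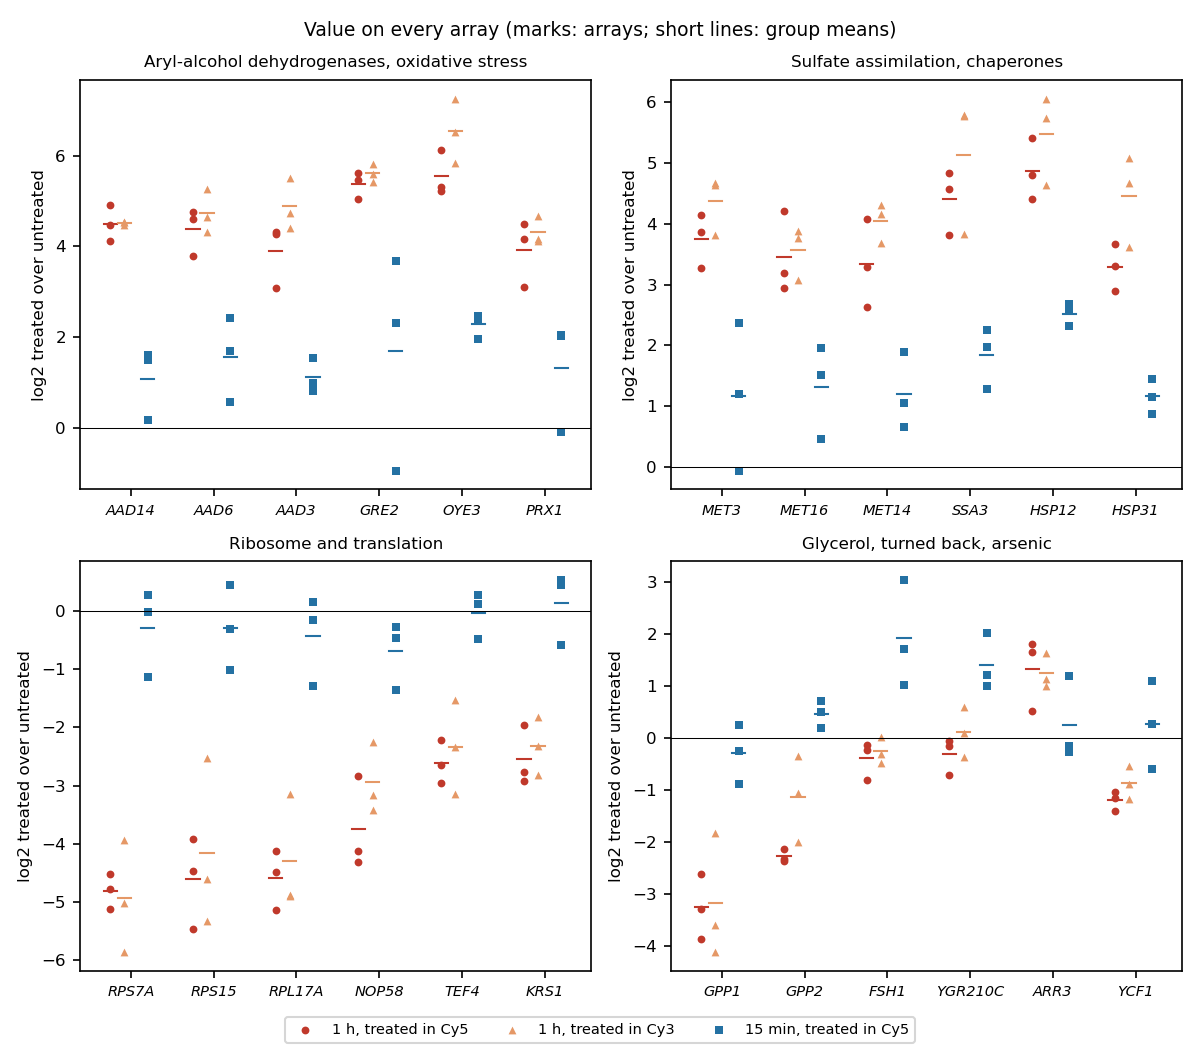
Log2 ratios of treated over untreated RNA (vertical axes) of 24 named genes on every array, with 1 h arrays of each dye orientation to the left of the 15 min arrays; short lines mark group means. GRE2, AAD14 and the other higher genes shown have no 1 h array within the 15 min range, whereas ARR3 overlaps, and RPS7A, RPS15 and RPL17A lie more than 3 log2 units lower at 1 h on average.

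Several large rises lay outside these groups. OSI1, a gene of unknown function named for oxidative stress induction, stood at 3.08, 5.39 and 4.63 on the Cy5 arrays at 1 h, against -0.79, 1.47 and 1.42 at 15 min, a difference of 3.67 ± 0.82 (limma, adjusted p = 0.01978). YKL070W, which lies next to OSI1 on the chromosome, differed by 2.61 ± 0.65. ALD3, a cytoplasmic aldehyde dehydrogenase gene, was at 2.18, 3.56 and 4.29 on the Cy5 arrays at 1 h, against -0.09, 0.31 and 0.07 at 15 min. It differed by 3.25 ± 0.56, and it kept its call with each array left out in turn. YMR090W, YML131W and YLL066C differed by 3.09, 2.99 and 2.77, and YML131W kept its call with each array left out. YMR090W, YLL066C, OSI1 and YKL070W lost theirs without any 1 of 15 min replicate 1, 1 h replicate 4 and 1 h replicate 5. YLL066C and YKL070W also lost theirs without 15 min replicate 3, and YLL066C without 1 h replicate 3.

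Single members of other lists also rose. MSC1, a gene of the hydrophilin and stationary phase list, differed by 2.25 ± 0.40, and with HSP12 it made 2 called of 21 in a list whose median was 0.72 (-0.61 as deposited). That count was 7 with no dye term or array weights, 5 without 15 min replicate 2, 1 without 1 h replicate 5 and 0 as deposited. NQM1, a transaldolase gene, differed by 2.52 ± 0.55. It was the 1 called of 19 pentose phosphate and NADPH genes, whose median was -0.01. DDR48, a DNA damage-responsive gene, differed by 2.02 ± 0.43 (1 of 16 in its list), LHS1, an endoplasmic reticulum chaperone gene, by 1.50 ± 0.35 (1 of 17), and ATG29, an autophagy gene, by 1.26 ± 0.33 (1 of 31), which was -0.070 as deposited. MRP8 differed by 1.73 ± 0.36 and was the 1 called of 65 genes in the mitochondrial ribosomal protein list. Whether MRP8 encodes such a protein was not checked here, and no other member of the list was called. That list had a median of -0.24 and values near 0 at both times, with a median over members of -0.09 at 1 h and 0.08 at 15 min. NQM1, DDR48, LHS1, ATG29 and MRP8 each lost the call without 15 min replicate 1 or 1 h replicate 4.

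The cytosolic ribosomal proteins made up most of the fall. Of 132 measured genes, 93 were lower at 1 h and 0 higher, which is 53.8% of all genes called lower. The small subunit had 46 of 54 members called and the large subunit 47 of 78, with median differences of -3.32 and -3.16. Over the whole list the median level was -3.47, -4.03 and -4.34 on the Cy5 arrays and -3.13, -4.10 and -4.75 on the Cy3 arrays at 1 h, against -0.42, -1.26 and -0.16 at 15 min. Every 1 h array thus lay below every 15 min array. By the test against untreated cells 126 members were lower at 1 h and 0 at 15 min, against 1251 and 1 of all 5539 genes. The median difference was -3.26, against -0.09 for all genes, and it ran from -4.59 (as deposited) to -2.35 over the alternatives tried.

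RPS7A had the largest difference of any gene. It stood at -4.51, -5.12 and -4.77 on the Cy5 arrays and at -3.93, -5.01 and -5.86 on the Cy3 arrays at 1 h, against -0.02, -1.14 and 0.27 at 15 min. The difference was -4.50 ± 0.81 (limma, adjusted p = 0.0069), a 22.7-fold lower ratio. RPS15 and RPS0B differed by -4.32 and -4.20, and RPS12, RPL17A, RPL19B, RPL42A, RPL20A, RPS10A, RPL23B, RPS18A and RPS23B by -4.08 to -4.17. In each of these 12 genes all 6 arrays at 1 h lay below the 3 at 15 min, which the choice of the genes required of the Cy5 arrays. With single arrays left out, RPL19B lost its call without 15 min replicates 1 or 3 or 1 h replicates 4 or 5, and the other 11 kept theirs. Many ribosomal protein genes exist in nearly identical pairs, so a value can belong to either copy.

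The count of called ribosomal protein genes fell to 48 without 15 min replicate 1, 44 without 15 min replicate 3, 47 without 1 h replicate 4 and 46 without 1 h replicate 5. It was 85 to 94 without any other array. Members of the list are bright by the brightness proxy, with a median percentile of 96.0. With the brightness trend removed from each array 98 were called and the median was -2.42, without 15 min replicate 2 there were 94, and on the values as deposited 120.

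**Figure D3:**
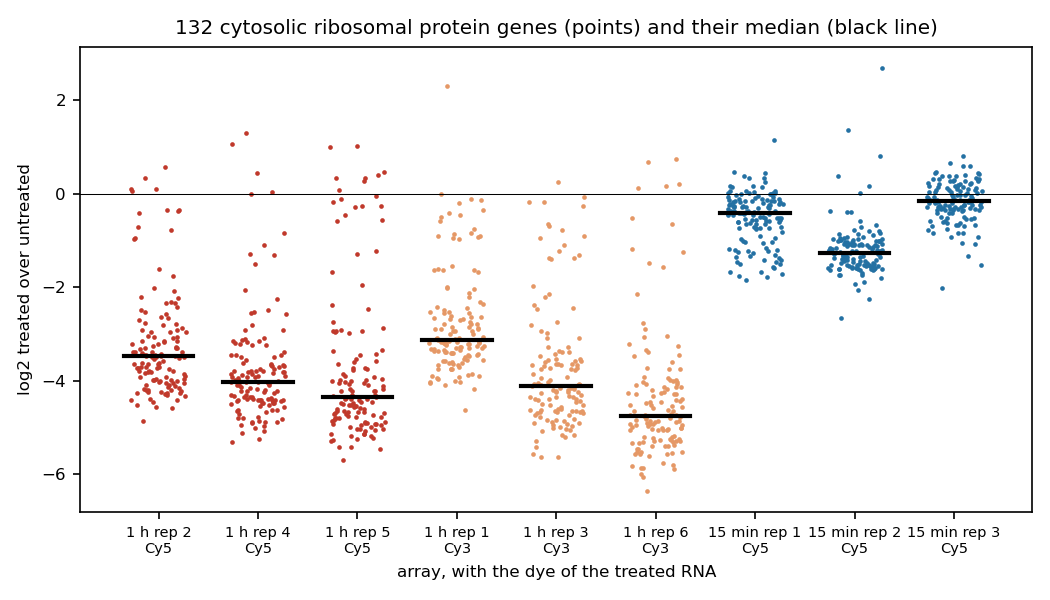
Log2 ratios of treated over untreated RNA (vertical axis) of 132 cytosolic ribosomal protein genes on each 1 h array, ordered by dye, and each 15 min array. Black lines are list medians, which lie between -4.75 and -3.13 at 1 h and between -1.26 and -0.16 at 15 min.

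Not every ribosomal protein gene behaved like the rest. The 39 that did not pass had a median difference of -1.99. RPS19A averaged 0.88 at 1 h and 0.37 at 15 min, and its 15 min arrays spread from -1.72 to 2.69. RPS30A, RPL15A and RPL43B had differences of 0.34, 0.10 and 0.01, each smaller than its limma SE, and their 1 h arrays lay between -0.20 and 1.06. These genes were dim for the list by the brightness proxy. The brightness percentile was 9.93 for RPS19A, 43.4 for RPS30A, 3.92 for RPL15A and 19.3 for RPL43B, against a list median of 96.0. Whether dim spots could show a fall was not tested. RPL10, a protein that joins the large subunit late, averaged -1.22 at 1 h and -0.07 at 15 min (-1.15 ± 0.42, limma adjusted p = 0.1722). RPL22B averaged -2.01 on the Cy5 arrays at 1 h and was already at -1.23, -1.92 and -1.08 on the 15 min arrays.

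A further 8 of the members not called were set apart on 1 array. RPL17B, RPL25, RPL26A, RPL33A, RPL35B, RPL42B, RPS17A and RPS2 were above -1 on 1 h replicate 5 and below -2 on each of the other 5 arrays at 1 h. RPL42B, for example, was at 1.00 on replicate 5 and between -4.19 and -3.62 on the others. Over all genes, 11 had this pattern on 1 h replicate 5, against 0 to 3 on any other 1 h array. Without replicate 5, 4 of the 8 passed the test, RPS17A with a difference of -3.37, which was -1.99 with it.

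Ribosome assembly factors process and fold ribosomal RNA in the nucleolus. Of 123 measured genes, 7 (5.69%) were lower at 1 h and 0 higher, a share not far from the 3.12% of all genes, with a median difference of -0.64. NOP58 and NOP56 encode core proteins of the box C/D snoRNPs that methylate ribosomal RNA, and SNU13 encodes a protein that binds the same RNAs. NOP58 stood at -2.84, -4.12 and -4.30 on the Cy5 arrays at 1 h, against -0.28, -1.36 and -0.46 at 15 min, a difference of -3.05 ± 0.60 (limma, adjusted p = 0.009528). SNU13 differed by -2.69 ± 0.50 and NOP56 by -2.64 ± 0.44, and both kept their calls with each array left out in turn. The other called members were EBP2, BRX1, FPR4 and GAR1. By the test against untreated cells, 102 members of this list were lower at 1 h and 0 at 15 min (1251 and 1 of all 5539 genes). The list median was -1.25 at 1 h and -0.54 at 15 min. Without 15 min replicate 1, 1 h replicate 4 or 1 h replicate 5, the count between the times was 2, and without 15 min replicate 3 it was 4. It was 38 on the values as deposited (3 there without 15 min replicate 1), 33 with array weights, 15 with scaled arrays and 11 with no dye term.

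Translation and tRNA charging followed the same direction. Of 37 translation factor genes, 4 were lower and 0 higher, with a median difference of -0.96. TEF4 and EFB1 encode subunits of elongation factor eEF1B and differed by -2.58 ± 0.59 and -2.39 ± 0.62, and CDC33, the gene of the cap-binding protein eIF4E, differed by -1.94 ± 0.45. TIF11, the gene of eIF1A, was the other. Of 19 cytosolic tRNA synthetase genes, the 2 called were KRS1, for lysine (-2.68 ± 0.47), and FRS2, for phenylalanine (-2.07 ± 0.49), although the list median of -1.43 was far below the -0.09 of all genes. KRS1 was at -1.97, -2.92 and -2.76 on the Cy5 arrays at 1 h, against 0.52, -0.58 and 0.45 at 15 min, and it kept its call with each array left out. The count of called tRNA synthetase genes was 14 with array weights and 13 as deposited (1 there without 15 min replicate 1). It was 7 with scaled arrays or no dye term, and 6 with the brightness trend removed or without 15 min replicate 2. Without 15 min replicates 1 or 3 or 1 h replicates 4 or 5 it was 1. Among 20 genes of RNA polymerases I and III, RPC19, which encodes a subunit that both enzymes share, passed with -1.46 ± 0.30, a call lost without 15 min replicate 1, 1 h replicate 4 or 1 h replicate 5. The count of translation factors was 0 without 1 h replicate 4 or 5, 1 without 15 min replicate 1 or 3, and 2 without 1 h replicate 2. It was 20 with array weights, 17 as deposited (2 there without 15 min replicate 1) and 11 with no dye term. It was 7 with scaled arrays or the brightness trend removed, and with the trend removed the list median was -0.39.

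**Figure D4:**
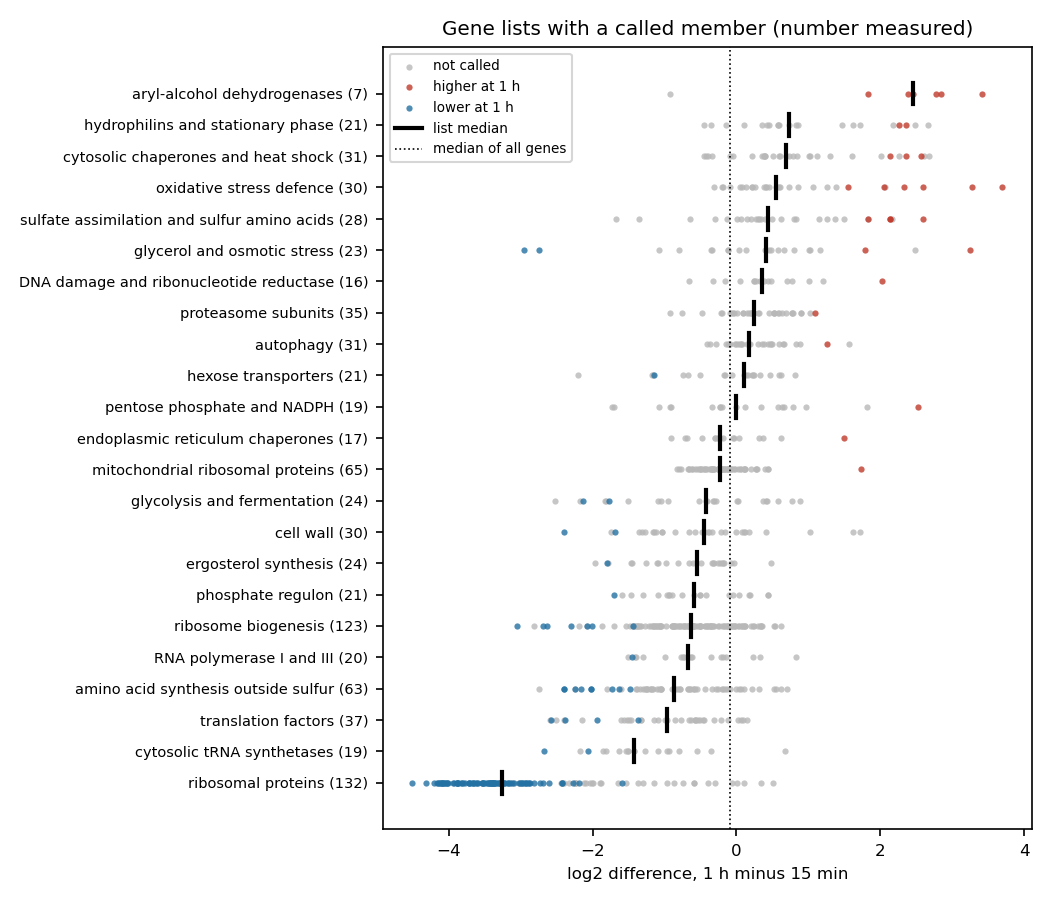
Log2 difference of 1 h minus 15 min (horizontal axis) for every measured member of the 23 lists that hold a called gene, with list medians as black bars and the median of all genes dotted. Ribosomal proteins have a median of -3.26 and aryl-alcohol dehydrogenases one of 2.46, while most other lists have medians within 1 log2 unit of 0.

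Amino acid synthesis outside the sulfur pathway was lower in 9 of 63 genes and higher in 0, with a median difference of -0.87. BAT1 encodes a mitochondrial branched-chain aminotransferase, HIS1 the first enzyme of histidine synthesis and ARO4 an enzyme at the entry to aromatic amino acids. BAT1 stood at -2.01, -3.04 and -2.51 on the Cy5 arrays at 1 h, against -0.16, -0.64 and 0.42 at 15 min. It differed by -2.39 ± 0.52, HIS1 by -2.39 ± 0.51 and ARO4 by -2.24 ± 0.50 (limma, adjusted p = 0.01608, 0.01369 and 0.01956). The others were ILV2 and ILV6, the subunits of acetolactate synthase, LYS12 and LYS21 of lysine synthesis, ARG3 of arginine synthesis and TRP4 of tryptophan synthesis. This count depended on single arrays and on the setting. It was 30 on the values as deposited (2 there without 15 min replicate 1) and 29 with array weights, and the list median was -0.46 with the brightness trend removed. The count was 1 without 15 min replicate 1, 1 without 15 min replicate 3, 5 without 1 h replicate 2, 0 without 1 h replicate 4 and 2 without 1 h replicate 5.

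Central metabolism held few calls. PFK1 and PFK2, which encode the subunits of phosphofructokinase, the main control step of glycolysis, were the 2 lower of 24 glycolysis and fermentation genes. PFK2 stood at -1.80, -2.49 and -2.36 on the Cy5 arrays at 1 h, against 0.13, -0.76 and 0.38 at 15 min (difference -2.13 ± 0.48), and PFK1 differed by -1.77 ± 0.47. HXT14 differed by -1.15 ± 0.29 (1 of 21 hexose transporter genes), ERG20, an enzyme gene of the farnesyl diphosphate step, by -1.80 ± 0.47 (1 of 24 ergosterol genes), and VTC1, a polyphosphate synthesis gene, by -1.71 ± 0.41 (1 of 21 phosphate genes). UTR2, a cell wall glucan-chitin linking enzyme gene, and CWP1, a mannoprotein gene, differed by -2.40 ± 0.64 and -1.68 ± 0.44 (2 of 30 cell wall genes). Each of these genes lost its call without 15 min replicate 1, 1 h replicate 4 or 1 h replicate 5. As deposited, the called members were 9 for glycolysis, 4 for hexose transporters, 8 for ergosterol, 5 for phosphate and 11 for the cell wall. In that setting 557 of all 5539 genes were lower. Without 15 min replicate 1 as well, the count was 1 for glycolysis and 0 for each of the other 4 lists, with 133 of all genes lower. Other large falls outside the lists, named after their values were seen, were those of MEU1, a methylthioadenosine phosphorylase gene of methionine salvage (-3.64), GUA1, the GMP synthase gene (-3.27), and NSR1, a nucleolar protein gene (-3.26).

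The glycerol and osmotic stress list split in both directions, with 2 of 23 genes higher and 2 lower. ALD3, described above, and GCY1, a glycerol dehydrogenase gene (1.79 ± 0.41), were higher. GPP1 and GPP2 encode the phosphatases that release glycerol from glycerol 3-phosphate, and both were lower. GPP1 stood at -2.61, -3.29 and -3.86 on the Cy5 arrays and at -1.83, -3.58 and -4.12 on the Cy3 arrays at 1 h, against -0.26, -0.88 and 0.26 at 15 min (difference -2.96 ± 0.71, limma adjusted p = 0.02743). GPP2 stood at -2.13, -2.36 and -2.33 on the Cy5 arrays and at -1.06, -2.00 and -0.34 on the Cy3 arrays at 1 h, against 0.20, 0.49 and 0.72 at 15 min (difference -2.74 ± 0.48, limma adjusted p = 0.006443). Both were below the level of untreated cells on all 6 arrays at 1 h and within 1 log2 unit of it at 15 min. Spotted probes can bind both copies. GPP2 kept its call with each array left out, and GPP1 and GCY1 lost theirs without 15 min replicates 1 or 3 or 1 h replicates 4 or 5. Spots of GPP2 and of GCY1 lay more than 1 log2 unit apart on an array that set the difference, so the spot filter left both genes out.

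A small set of early transcripts turned back. At 15 min, with the dye effect taken out, 37 genes were called above untreated cells and 1, the histone gene HHF2, below them. Of the 37, 34 were still called above untreated cells at 1 h, as were 946 of all 5539 genes. Of the same 37, 3 had risen further (OYE3, HSP12 and HSP31), and 2 were lower at 1 h than at 15 min. Both had returned to about the level of untreated cells by 1 h. FSH1, a putative serine hydrolase gene, stood at -0.23, -0.80 and -0.14 on the Cy5 arrays and at 0.02, -0.31 and -0.48 on the Cy3 arrays at 1 h, against 1.01, 1.70 and 3.03 at 15 min. The times did not overlap, and the difference was -2.30 ± 0.41 (limma, adjusted p = 0.006704). YGR210C, a putative GTP-binding protein gene, was at -0.06, -0.71 and -0.15 on the Cy5 arrays at 1 h, against 1.20, 1.00 and 2.02 at 15 min (difference -1.72 ± 0.34). At 30 min FSH1 averaged 1.16 and YGR210C 0.30. FSH1 kept its call with each array left out, and YGR210C lost it without 1 h replicate 4. The fit used the same 15 min arrays to call these genes and to measure their return.

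The genes of arsenic transport and detoxification held 0 of 7 that passed the test in limma and 1 with an unadjusted p under 0.05, YCF1. The list median was 0.25 (-1.08 as deposited). ARR3, the gene of the plasma membrane arsenite exporter, stood at 0.51, 1.65 and 1.80 on the Cy5 arrays and at 1.00, 1.13 and 1.63 on the Cy3 arrays at 1 h, against -0.26, 1.18 and -0.15 at 15 min. The times overlapped through 15 min replicate 2, and the difference was 1.06 ± 0.62 (limma, adjusted p = 0.4725). YCF1, the gene of the vacuolar transporter of glutathione conjugates, was at -1.39, -1.15 and -1.04 on the Cy5 arrays at 1 h, against 0.28, 1.10 and -0.60 at 15 min. On the Cy3 arrays at 1 h it was at -0.53, -0.89 and -1.18, so 1 h replicate 1 lay above 15 min replicate 3. YCF1 had a difference of -1.45 ± 0.42 (limma, adjusted p = 0.07289).

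The differences of the other members were each smaller than their limma SE. By the test against untreated cells, 3 of the 7 list members were higher and 1 was lower at 1 h. At 15 min it called 0 in either direction. Of all 5539 genes it called 946 higher and 1251 lower at 1 h, and 37 and 1 at 15 min. ARR1, the transcription factor gene of the ARR cluster, differed by 0.25 ± 0.48, and ARR2, the arsenate reductase gene, by 0.26 ± 0.54. FPS1, the gene of the aquaglyceroporin through which arsenite enters, differed by 0.12 ± 0.30. Its regulators RGC1 and ASK10 differed by 0.30 ± 0.37 and -0.32 ± 0.35. No member passed with any array left out apart from YCF1, which passed without 15 min replicate 3. Other lists also had 0 genes called by limma between the times, and their members with an unadjusted p under 0.05 can be set against the 15.3% of all genes. There were 4 of 16 such genes for metallothioneins and metal transport, 6 of 26 for iron uptake, 7 of 51 for the citric acid cycle and respiration, 4 of 21 for trehalose and glycogen, 3 of 11 for glutamate and ammonium, 3 of 21 for inositol and phospholipids and 3 of 21 for small molecule export. There was 1 of 10 for histones, 1 of 18 for cyclins, and 0 of 10 mitochondrial chaperone genes, 0 of 14 chaperonin and prefoldin genes and 0 of 35 stress signalling factors.

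At 30 min most of the called genes had a mean between those of the other times. Over the 42 higher genes the median level was 0.68 at 15 min, 1.69 at 30 min and 3.08 at 1 h. Over the 173 lower genes it was -0.42 at 15 min, -2.08 at 30 min and -3.59 at 1 h. The 30 min mean lay between the means of the other times in 41 higher genes, SPC34 being the exception, and in all 173 lower genes. These genes were chosen for distant means at 15 min and 1 h, which leaves a wide gap for a 30 min mean to fall in. The share over all genes is not given here. The 30 min arrays differed among themselves: the median of the lower genes was -0.53 on replicate 1, -2.86 on replicate 2 and -2.92 on replicate 3. At 1 h, 42 of the 42 higher genes were called above untreated cells. Of the 173 lower genes 170 were called below untreated cells at 1 h, the other 3 being FSH1, YGR210C and HXT14. The same 1 h arrays chose these genes. Of all 5539 genes, 946 were called above and 1251 below untreated cells at 1 h.

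**Figure D5:**
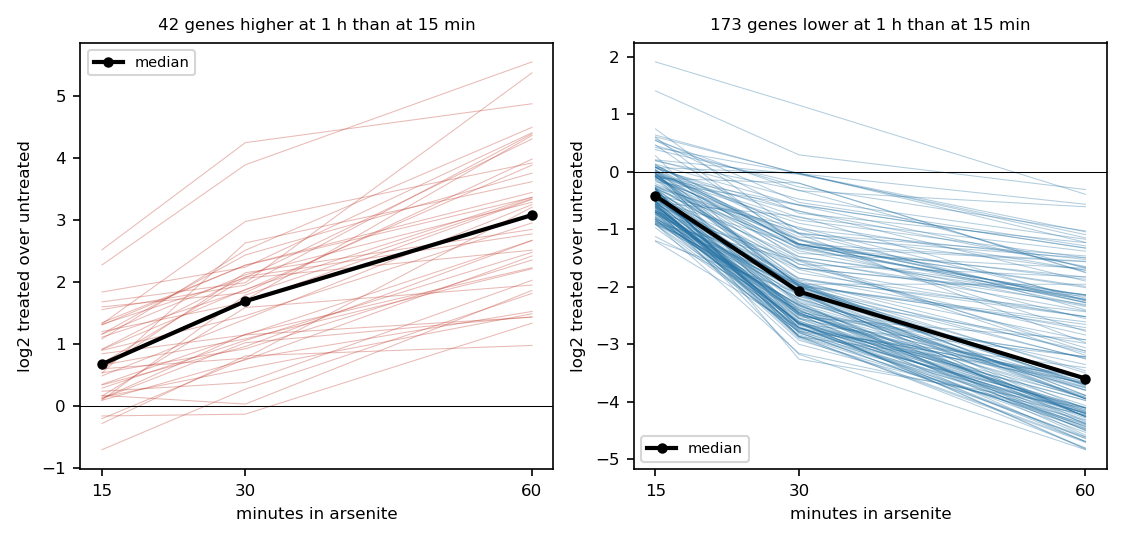
Mean log2 ratio of treated over untreated RNA (vertical axes) at 15 min, 30 min and 1 h (60 minutes, Cy5 arrays) for each gene called higher (left) or lower (right) at 1 h than at 15 min; black points are medians. The genes were chosen on their 15 min and 1 h values, and the 30 min arrays entered that choice only through the shared estimate of the spread.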

How the data were processed

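The authors deposited log2 ratios of treated over untreated RNA, 1 per spot and array, in a single table of 13056 spots. The direction was taken from the dyes, titles and signs and the base from the whole-number ratios of 10 arrays, and both are likely rather than stated. For growth, scanning and normalization the labels only cite a publication, and the steps themselves are not given in these sources. Platform annotation named 11138 spots, 11128 of them found in RefSeq assembly R64, which served for names and neighbours. Spots were averaged to 5539 genes and arrays centred on the gene median (Python 3.11.15, pandas 2.3.3). All 15 arrays entered a limma 3.58.1 fit (R 4.3.3) of time means plus a dye term, which passed an adjusted p of 0.05 in 0 genes (269 unadjusted). It had 10 residual degrees of freedom. The fit was also run on simulated data with independent errors and 1 spread per gene on all arrays. That run cannot show how the fit behaves where arrays at 15 min spread more widely. The fit took a single spread per gene over all times, so an SE can understate a wider spread at 15 min. Alternatives were another scaling, dye handling, array set, weights and filter, and each array left out.

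The 39 gene lists and the comparison itself were chosen with earlier results of these data known. Genes named were the 12 largest called differences in each direction with separate arrays, up to 3 called per list and direction, genes that turned back and the arsenic list, 68 in all. Any other gene named was chosen after its values were seen. Sequences were not analysed here. Signal over background is not known, and precision is limited by how many arrays there are.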

Additional observations from a re-analysis of the deposited data

Results flagged for a closer look

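The numbers of genes whose response differed between the times, 42 higher and 173 lower at 1 h than at 15 min, came from limma's test of the difference itself. Among the 6 arrays at 1 h, 9 of 107 values examined (68 named genes and 39 list medians) had 1 array far from the nearest other one. Chance alone sets apart about 1 in 20 such groups. On 1 h replicate 2, YML131W stood at 3.11, PRX1 at 3.10, the median of oxidative stress defence at 0.56 and that of aryl-alcohol dehydrogenases at 3.09, all below the other 5 arrays. On 1 h replicate 1, the values were above the other 5 arrays: ERG20 stood at -0.71, ARR1 at 0.29, the median of chaperonin CCT and prefoldin genes at 0.62 and that of proteasome subunits at 1.62. On 1 h replicate 6, the median of glycerol and osmotic stress genes stood at 1.16, above the others. Replicates 1 and 6 carried treated RNA in Cy3 and do not set the size of the differences reported.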

How the results depend on the processing

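Counts are given as higher and lower genes at 1 h relative to 15 min, 42 and 173 as reported. They were 146 and 296 with no dye term, 2 and 557 as deposited without centring, 5 and 133 as deposited without 15 min replicate 1, 22 and 264 with scaled arrays, 187 and 623 with array weights, and 141 and 205 with the brightness trend removed. The fit as deposited without 15 min replicate 1 and the trend removal were chosen after seeing the data. Leaving out 1 array at a time gave 12 to 70 higher and 59 to 224 lower genes, and the other alternatives stayed within 1.5 times. The filter on spots more than 1 log2 unit apart left 4912 genes. Among the named genes it removed were OSI1, AAD10, NQM1, DDR48, MRP8, CDC33, FRS2, ASK10, GPP2 and GCY1, which thus have no value there. The share of higher among called genes was 19.5% as reported, 0.358% as deposited, 7.69% with scaled arrays and 40.8% with the trend removed. With a replicate block (limma), 0 and 0 genes passed, against 144 at an unadjusted p under 0.05. Deviations of same-numbered arrays correlated at 0.34, -0.51 and -0.18, so the numbers were not taken to pair the arrays, although the labels do not say and 3 correlations cannot settle it, and of the 1 h arrays numbered 1 to 3 only replicate 2 has treated RNA in Cy5. On the values as deposited 3 called genes changed sign, RPN11, ATG29 and YPI1, to -0.24, -0.070 and -0.0085. Without 15 min replicate 1 as well they stood at 0.73, 0.61 and 0.89. Of the 215 genes, 50 kept their call in each of the 20 alternatives other than the block in which they had a value, all of them lower at 1 h and 40 of them ribosomal protein genes. None of the 42 higher genes did. The cause of these changes was not tested. Signal over background is unknown, so no limit for dim spots can be given.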

Other observations

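Genes called in the same direction were in places neighbours on a chromosome, 2 adjacent pairs among the higher genes and 12 among the lower ones. The higher pairs were OSI1 with YKL070W (differences of 3.67 and 2.61) and YPI1 with RPN11 (1.32 and 1.09, or -0.0085 and -0.24 as deposited). YPI1 encodes a regulator of protein phosphatase 1. Among the lower pairs were RPS9B with RPL21A (-3.37 and -3.88), RPS16B with RPL13A (-3.27 and -3.35) and RPL13B with RPS16A (-3.78 and -3.93). These pairs were picked out after their values were seen, and no test was made of their number.

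Other genes outside the lists rose, also named after their values were seen. ALD4, the gene of the mitochondrial aldehyde dehydrogenase, averaged 2.67 at 1 h and 0.34 at 15 min (2.33 ± 0.45, limma adjusted p = 0.008456). BDS1, a bacterially derived sulfatase gene, averaged 2.23 at 1 h and 0.12 at 15 min (2.11 ± 0.43). TFS1, an inhibitor gene of the vacuolar protease carboxypeptidase Y, averaged 2.78 at 1 h and 0.92 at 15 min (1.86 ± 0.40). In the iron uptake list FET3, the multicopper oxidase gene, averaged -3.81 at 1 h and -0.87 at 15 min, a difference of -2.94 ± 0.90 that did not pass the test (limma adjusted p = 0.08934).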
